A study of Mus musculus with 2 samples.

Results

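The genes described here are the 3 fibrinogen chain genes, Fgg, Fgb and Fga, with the fibrinogen-like genes Fgl1 and Fgl2 beside them, in luminal cells of the mouse mammary gland. They were taken as all probe sets that the array annotation pairs with 1 of these 5 genes alone, which gave 6 probe sets of 29338, and 5 genes of 13869. The set was chosen by the measured difference between the populations, since Fgg and Fgb were already known to stand high in it, so their values are given as a description with no test. Mammary epithelial cells of 3 adult virgin females of 5 months on the FVB background were pooled. Luminal cells were sorted on CD24 and CD49f into a Venus High and a Venus Low population of 200000 cells each, after dead cells, CD45+ cells and stromal cells were gated away. All the mice were Tbx3+/Venus, in which the fluorescent protein Venus sits at the start codon of 1 Tbx3 allele, so both populations carried a single working copy of Tbx3, and Venus reports activity of the Tbx3 locus. RNA of each population was hybridized on 1 Affymetrix GeneChip array. There were no replicates, and no p-value or error between animals is given.

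Fibrinogen is the soluble plasma protein that thrombin turns into fibrin, the mesh of a blood clot. Each molecule joins paired alpha, beta and gamma chains, encoded by Fga, Fgb and Fgg, and the chains are assembled in the endoplasmic reticulum before secretion. Hepatocytes are the main source, and in the acute phase response interleukin-6, acting through STAT3, raises transcription of all the chain genes in the liver. Fgl1 and Fgl2 encode separate secreted or membrane proteins that share the C-terminal fibrinogen domain. FGL1 is a liver protein and a ligand of the immune receptor LAG3, and FGL2 is known from T cells and macrophages, where its membrane form can cleave prothrombin.

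Fgg and Fgb were high in luminal Venus High cells and undetected in luminal Venus Low cells, while the third chain gene, Fga, was undetected in both. Fgg, the gamma chain gene, had a log2 signal of 12.34 in Venus High cells, or 5194 on the linear scale, and lay at the lowest value of the table, a signal of 10 (3.32), in Venus Low cells. This lowest value acts as a floor, so Venus High cells held at least 519-fold more Fgg signal, a log2 difference of at least 9.02. Fgb, the beta chain gene, had a log2 signal of 11.81, or 3587, in Venus High cells and also lay at the floor in Venus Low cells. It was at least 359-fold higher, a log2 difference of at least 8.49. A floor of 10 is low for such arrays, and with the floor raised to 100 the bounds are 51.9-fold for Fgg (5.70 on the log2 scale) and 35.9-fold for Fgb (5.16). In both genes the Venus High value was far above the floor, so the size of the bound depends on how low a signal in Venus Low cells is trusted. In bulk samples, fewer cells that express a gene and less of its RNA per cell cannot be told apart.

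**Figure D1:**
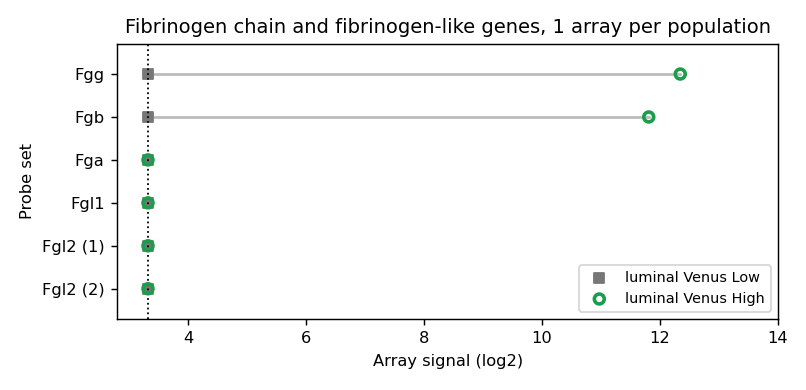
Array signal on the log2 scale (horizontal axis) of the 6 probe sets of the fibrinogen chain and fibrinogen-like genes (vertical axis) with luminal Venus High cells as green circles and luminal Venus Low cells as grey squares, each from 1 array. The dotted line is the floor, a signal of 10. Fgg and Fgb reach 12.34 and 11.81 in Venus High cells and lie at the floor in Venus Low cells, and on the 4 other probe sets both populations lie at the floor.

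Fga, the alpha chain gene, had a signal of 10 in both Venus High and Venus Low cells on its single probe set. Both values are the floor, so no fold is given. Neither array showed Fga above the floor, and whether its probe set responds to the transcript cannot be seen from these samples. The fibrinogen-like genes were at the floor as well. Fgl1 had a signal of 10 on both arrays on 1 probe set, and Fgl2 had a signal of 10 on both arrays on each of its 2 probe sets. Of all 13869 genes, 6691 (48.2%) lay at the floor on both arrays, so the state of Fga, Fgl1 and Fgl2 was a common one.

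To be counted as higher, a gene needed a log2 difference of 2 or more, which is 4-fold, with a signal of at least 100 in the brighter population. By this rule 2.38% of the 13869 genes were higher in Venus High cells, or 8.58% of the 3847 genes that reached a signal of 100, which came to 330 genes. Fgg and Fgb were among them and were the 2 of the 5 genes that reached a signal of 100. Since the genes were chosen for this difference, nothing is read from their share. Of the 330 genes, 53 lay at the floor in Venus Low cells, as Fgg and Fgb did. A difference or bound of at least 256-fold was found for 5 genes, namely Fgg, Fgb, the chemokine gene Cxcl15, the scavenger receptor gene Dmbt1 and the thyroid hormone-binding protein gene Crym. The 3847 genes had a median log2 difference of 0.46, and the 3 control probe sets for Gapdh differed by 0.43 to 0.58. The table used here holds 0 probe sets that were lower in Venus High cells, so medians lie above 0 by construction, and a gene without a value may be lower in Venus High cells or outside the table for another reason. The same holds for single probe sets, so a gene at the floor may have other probe sets outside the table. Over 1062 genes, the log2 differences between populations of probe sets of the same gene varied with an SD of 0.31. Only probe sets that reached a signal of 100 were used, and this is a spread within these arrays and not between animals. Fgg, Fgb, Fga and Fgl1 have 1 probe set each in the table, so this spread cannot be given for them.

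**Figure D2:**
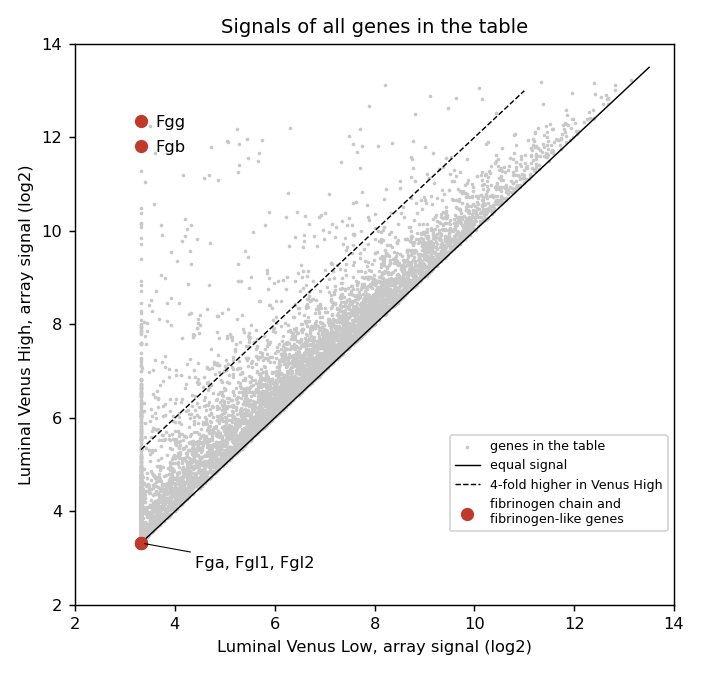
Array signal on the log2 scale of all 13869 genes in luminal Venus Low cells (horizontal axis) and luminal Venus High cells (vertical axis), 1 point per gene. The solid line marks equal signals and the dashed line a 4-fold difference, and the table holds no gene below the solid line. Fgg and Fgb (red) lie at the left edge, at the floor in Venus Low cells and at 12.34 and 11.81 in Venus High cells, and Fga, Fgl1 and Fgl2 share the corner where both values are the floor.

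The genes whose pair of values was nearest to that of Fgg were Cxcl15, Dmbt1, Fgb, Crym and Cited1, by Euclidean distance over the 2 log2 values among genes that reached a signal of 100. Cxcl15 lay 0.21 log2 units from Fgg, with 12.24 in Venus High cells against 3.50 in Venus Low cells. Dmbt1 lay 0.51 away, with 11.83 and the floor, and Fgb 0.53 away. The genes nearest to Fgb were Dmbt1, at 0.02, Crym, at 0.32, Cxcl15, at 0.47, Cited1, at 0.53, and Fgg. Crym had log2 signals of 11.67 and 3.61. Cited1, a co-activator of the estrogen receptor, had 11.28 in Venus High cells and the floor in Venus Low cells. The 2 fibrinogen chain genes were within the short lists of each other. Both were chosen for these same values, so nothing is read from their nearness. With only 2 values per gene and signals that depend on each probe set, the distance describes these arrays and nothing more.

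In the mouse genome the chain genes are neighbours on chromosome 3, in the order Fgg, Fga, Fgb, so the chain gene at the floor lies between the 2 that were high. Fgg and Fga are transcribed from the plus strand and Fgb from the minus strand. Among the 5 nearest protein-coding genes with a full name on each side, 7 of 10 had a value. All 5 genes on the side of Fgg, namely Lrat, Rbm46, Npy2r, Map9 and Gucy1a1, read the floor in both populations. Plrg1, a pre-mRNA splicing factor gene next to Fgb, had a signal of 1037 in Venus High cells against 287 in Venus Low cells, 3.61-fold higher or 1.85 on the log2 scale, under the 4-fold threshold. Tmem131l, farther out on that side, had log2 signals of 5.00 and 4.71, toward the floor. Dchs2, Sfrp2 and Tlr2 are not analysed here.

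**Figure D3:**
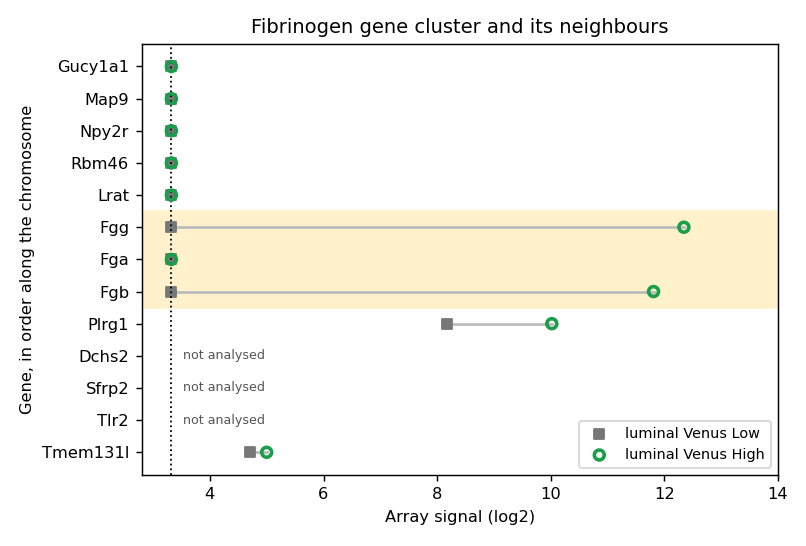
Array signal on the log2 scale (horizontal axis) of the fibrinogen genes (shaded) and of the 5 nearest named protein-coding genes on each side, listed in their order along chromosome 3 (vertical axis, not to scale in distance). Green circles are luminal Venus High cells, grey squares luminal Venus Low cells and the dotted line is the floor. Fgg and Fgb are separated by Fga at the floor, the 5 genes above Fgg are at the floor in both populations, and Plrg1 next to Fgb is present in both.

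The sequences just upstream of the chain genes are shown because Fgg and Fgb were high in the same population while Fga, between them, was at the floor. They are the 250 bases before each transcription start, read 5′ to 3′ on the strand of the gene, from RefSeq on GRCm38.p6. Capitals mark every match to the searched motifs.
Fgg, chr3:83007474-83007723, plus strand: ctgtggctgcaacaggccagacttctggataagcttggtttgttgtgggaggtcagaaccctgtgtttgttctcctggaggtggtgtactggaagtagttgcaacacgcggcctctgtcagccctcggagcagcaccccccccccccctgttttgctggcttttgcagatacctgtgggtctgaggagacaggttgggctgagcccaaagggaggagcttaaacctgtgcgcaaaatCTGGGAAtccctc
Fga, chr3:83025903-83026152, plus strand: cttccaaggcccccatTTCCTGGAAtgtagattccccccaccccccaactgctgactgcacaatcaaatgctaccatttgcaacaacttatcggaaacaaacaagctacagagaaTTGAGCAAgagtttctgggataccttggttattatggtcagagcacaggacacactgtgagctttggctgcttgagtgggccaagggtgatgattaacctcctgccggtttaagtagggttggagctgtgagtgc
Fgb, chr3:83049864-83050113, minus strand: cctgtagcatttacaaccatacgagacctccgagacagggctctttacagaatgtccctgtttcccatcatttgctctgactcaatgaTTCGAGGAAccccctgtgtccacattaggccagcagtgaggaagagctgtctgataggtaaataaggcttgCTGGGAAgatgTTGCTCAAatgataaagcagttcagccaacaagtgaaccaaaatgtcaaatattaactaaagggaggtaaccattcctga

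The windows searched ran from 250 bases before to 50 after the start, on both strands, and 4 of the 5 genes had one. The letters CTGGGAA, the core of the interleukin-6 response element of acute phase genes, were found in the windows of Fgg and Fgb and not in that of Fga. In Fgg the match began 13 bases before the start and in Fgb 91 bases before it. The same letters also occurred in the window of Fgl2, 34 bases before the start, and 11.1% of all 32851 windows held them. The other liver-related motifs fell differently. The C/EBP motif TTGCNNAA matched in Fga and Fgb, at 135 and 80 bases before the start, and in 10.8% of all windows. The STAT motif TTCNNNGAA, a palindrome, matched in Fga at 234, in Fgb at 162 and in Fgl2 at 36 bases before the start, where it overlaps the CTGGGAA match, and in 8.30% of all windows. The window of Fgb thus held all 3 of these motifs, that of Fga held 2, and that of Fgg held CTGGGAA alone.

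The letters of the T-box core, GGTGTGA, which Tbx3 and its relatives bind, were in none of the 4 windows and in 3.98% of all windows. The estrogen receptor palindrome GGTCANNNTGACC was likewise absent from the 4 windows, as were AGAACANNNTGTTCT, the palindrome of the progesterone and glucocorticoid receptors, and the TATA box letters TATAAA. These were in 0.0700%, 0.00913% and 13.6% of all windows. A match is a description of the letters and not of binding, and no match says only that the letters are not in this window.

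Around fibrinogen, 148 genes were set in 8 lists. These cover coagulation, fibrinolysis, transglutaminases, acute phase proteins, fibrinogen gene regulators, fibrinogen domain proteins, receptors, and assembly and secretion. Of the 148, 91 had a value, 50 of these lay at the floor in both populations and 25 reached a signal of 100. Of the 25, 5 genes passed the 4-fold threshold, namely Vwf, Tgm2, Lifr, Socs3 and Fcgr2b, which is 20.0%, beside 8.58% of all the genes that reached that signal. This is a count of genes in lists drawn up with earlier results known, and nothing particular to the lists is read from it. The 57 genes without a value are not analysed here.

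Among the regulators of the fibrinogen genes, 10 of 24 had a value and 4 reached a signal of 100. Of the 4, 2 passed the 4-fold threshold, beside 8.58% of all genes that reached that signal. Socs3, the feedback inhibitor that STAT3 induces, had a signal of 3566 in Venus High cells against 519 in Venus Low cells, 6.87-fold higher, and its 3 probe sets differed by 2.75, 2.78 and 2.81 on the log2 scale. Lifr, which encodes the receptor for leukemia inhibitory factor, an interleukin-6 family cytokine, had signals of 965 and 96.5, with log2 differences of 2.60, 2.98 and 3.32 on its 3 probe sets. Jak2, a kinase that signals below cytokine receptors, had signals of 681 and 208, 3.27-fold higher and under the threshold. Il6st, which encodes gp130, the shared signaling chain of the interleukin-6 family, had signals of 481 and 421, a log2 difference of 0.19. Median centring lowers a difference by 0.66 where the Venus High value lies at least that far above the floor, in a direction fixed by the one-sided table. It makes the difference of Il6st and other such differences under 0.66 negative. Closer to the floor a difference falls by less. Osmr, the oncostatin M receptor gene, had signals of 54.8 and 31.4, below 100 in both populations. Hnf4a and Foxa2, transcription factor genes of the liver, and Nr3c1, the glucocorticoid receptor gene, lay at the floor in both populations on the probe sets used. Stat3, Il6, Il6ra, Cebpa, Cebpb and Cebpd are not analysed here. The 4 genes had a median log2 difference of 2.25, beside 0.46 over all genes that reached a signal of 100. The 14 regulators without a value may be lower in Venus High cells, so nothing is read from this median.

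Of 26 acute phase genes other than the fibrinogen genes, 14 had a value and 0 were at least 4-fold higher. The liver secretes most of these proteins with fibrinogen. Of the 14, 10 lay at the floor in both populations, where 48.2% of all genes in the table lay. Among the 10 were Crp, Apcs, Orm1, Orm2, Itih4 and Serpina3n. Hpx, which encodes the heme carrier hemopexin, had a signal of 11.5 in Venus High cells and the floor in Venus Low cells. The metallothionein genes Mt1 and Mt2, metal-binding proteins made by many cell types, were the 2 that reached a signal of 100. Mt2 had signals of 3824 and 1244, 3.07-fold higher, and Mt1 had 3131 and 1957, 1.60-fold higher. Hp, Lcn2, Lbp, C3, Saa1, Saa2 and Saa3 are among the 12 not analysed here.

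Of 28 coagulation genes 19 had a value and the other 9 are not analysed here. Of the 19, 13 lay at the floor in both populations, where 48.2% of all genes in the table lay, and 2 reached a signal of 100. F2, which encodes prothrombin, the precursor of the protease that cuts fibrinogen, had a signal of 15.5 in Venus High cells and the floor in Venus Low cells. F3, which encodes tissue factor, the cell surface starter of coagulation, was bright in both populations, with signals of 4011 and 2320, 1.73-fold higher or 0.79 on the log2 scale. Vwf, which encodes von Willebrand factor, had signals of 153 and 19.8, 7.74-fold higher, on its 1 probe set. Its log2 difference of 2.95 drops to 0.62 once the floor is set at 100, under the 4-fold threshold. Proc, which encodes the anticoagulant protein C, had a signal of 88.3 in Venus High cells and the floor in Venus Low cells, below the minimum of 100.

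Of 9 transglutaminase genes, whose enzymes cross-link fibrin and other proteins, 8 had a value and 2 reached a signal of 100. Tgm2, tissue transglutaminase, had signals of 8546 in Venus High cells against 1092 in Venus Low cells, 7.83-fold higher on the brightest probe set. Its log2 differences were 2.97 to 4.38 on its 5 brighter probe sets, and at least 2.87 on the other. All 6 carry names that mark probe sets shared between transcripts or genes. Tgm1, the keratinocyte transglutaminase, had signals of 568 and 294, 1.93-fold higher. F13a1 and F13b, which encode the subunits of factor XIII, the enzyme that cross-links fibrin in plasma, were at the floor on both arrays.

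Of 13 fibrinolysis genes, 8 had a value, 3 reached a signal of 100 and 0 passed the 4-fold threshold. Plg, the gene of plasminogen, which is activated to dissolve fibrin, was at the floor on both arrays. Plau, the urokinase gene, had signals of 114 and 80.3, and Plat, the tissue plasminogen activator gene, had 78.5 and 71.6. S100a10 and Anxa2, which together bind plasminogen on the cell surface, were bright in both populations, with signals of 3568 and 2362 for S100a10 and 4510 and 4301 for Anxa2. The 3 genes had a median log2 difference of 0.50, beside the 0.46 given above.

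Genes for receptors of fibrinogen and of the fibrinogen-like proteins gave 1 count of at least 4-fold, on a weak signal. Of 15 listed genes 10 had a value and 2 reached a signal of 100. Itgav, the integrin alpha v gene, had signals of 2086 and 1757, a log2 difference of 0.25. Its partner Itgb3 was at the floor on both arrays, as was Itgam, the alpha chain of the leukocyte fibrinogen receptor. Fcgr2b, an inhibitory Fc receptor gene reported to bind FGL2, had a signal of 105 in Venus High cells and the floor in Venus Low cells on 1 probe set, at least 10.5-fold higher, while its 4 other probe sets read the floor in both populations. With the floor at 100 its log2 difference is 0.07. Lag3, the receptor gene of FGL1, was at the floor on both arrays. Of 17 other genes with a fibrinogen domain, such as angiopoietins, ficolins and tenascins, 12 had a value and 0 reached a signal of 100. Angptl6, an angiopoietin-like gene, had signals of 41.1 and 20.3.

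Those genes for the assembly and secretion of disulfide-linked proteins that had a value were present in both populations. Of 16 listed genes 10 had a value, all 10 reached a signal of 100 and 0 passed the 4-fold threshold. The other 6 are not analysed here. Their median log2 difference was 0.26, beside 0.46 over all genes that reached that signal. The chaperone genes Canx and Calr had signals of 2098 and 2039, and of 3940 and 3844. Pdia3, which encodes a disulfide isomerase, had 2375 and 2217. Sdf2l1, an endoplasmic reticulum chaperone component gene, had 329 in Venus High cells against 121 in Venus Low cells, 2.72-fold higher, and Pdia6, another isomerase gene, had 1043 and 579, 1.80-fold higher.

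**Figure D4:**
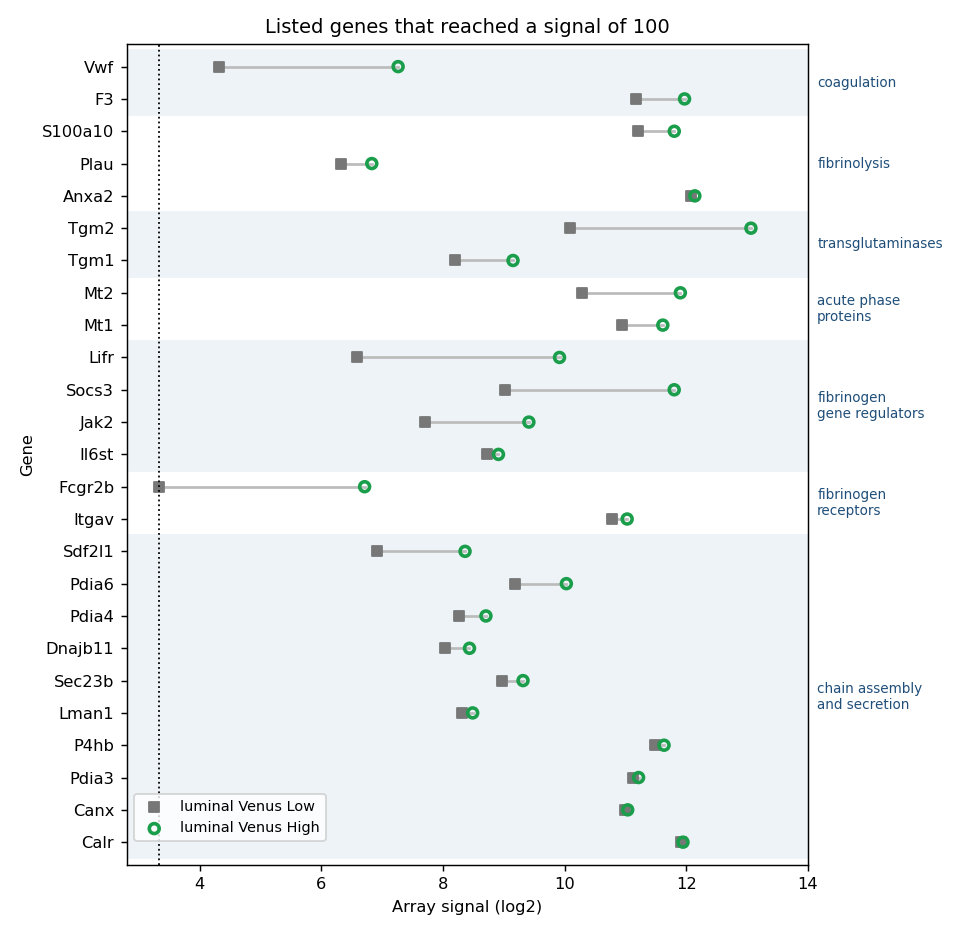
Array signal on the log2 scale (horizontal axis) of the 25 listed genes that reached a signal of 100 (vertical axis), grouped in bands by list, with luminal Venus High cells as green circles and luminal Venus Low cells as grey squares, each from 1 array. The dotted line is the floor. Lifr, Socs3, Tgm2, Vwf and Fcgr2b have gaps of at least 2 log2 units, Fcgr2b just above a signal of 100, while the assembly and secretion genes have small gaps.

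Markers with a value for the cell types that are known to hold fibrinogen were at or near the floor. Of 10 hepatocyte markers, 7 had a value and 6 of these, Apoa1, Apob, Ttr, Ahsg, Hnf4a and Cyp2e1, lay at the floor in both populations. Apoa2 had a signal of 13.3 in Venus High cells. The summed signal of the 7 was 73.3 in Venus High cells and, at the floor, 70 in Venus Low cells. Alb is not analysed here. Platelets carry fibrinogen in their granules, and of 8 megakaryocyte and platelet markers 4 had a value, Pf4 and Ppbp at the floor in each population, with summed signals of 47.5 and 41.0 beside 40 at the floor. All 4 leukocyte markers with a value of 8, Ptprc among them, read the floor in both populations. So did all 5 basal markers with a value of 8 and all 4 adipocyte markers with a value of 5. Of all genes in the table, 48.2% lay at the floor in both populations. The table holds 0 probe sets lower in Venus High cells, so a marker brighter in Venus Low cells would have no value here. Of 6 endothelial markers 4 had a value, with Cdh5 and Tek at the floor, Kdr at 13.7 in Venus High cells and Vwf as given above, and their summed signals were 187 and 49.8. Of 6 fibroblast markers 5 had a value, with summed signals of 110 and 72.5 beside 50 at the floor, of which Dcn gave 64.6 and 29.7. The part of RNA from other cell types in the Vwf and Dcn values was not tested.

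Luminal markers were set beside the labels of the populations, as a description and not as a test of them. Of 9 pan-luminal markers 4 had a value, and 0 passed the 4-fold threshold. Krt8, a keratin of luminal cells, had signals of 9561 in Venus High cells against 8975 in Venus Low cells. Krt19 had 7864 and 3979, Cd24a had 9242 and 5377, and Cdh1 had 4186 and 3676. Their median log2 difference was 0.48, beside 0.46 over all genes that reached a signal of 100. Of 12 hormone-sensing markers 9 had a value, and Tnfsf11 read the floor in both populations. The 8 that reached a signal of 100, Esr1, Pgr, Foxa1 and Tbx3 among them, all passed the 4-fold threshold. Of all genes that reached that signal, 8.58% passed it. The cells were sorted on the reporter at the Tbx3 locus, so the Tbx3 difference follows from the sort. The table holds 0 probe sets lower in Venus High cells, so no marker with a value could have gone the other way. Of the 9 alveolar markers 0 had a value, so the Venus Low population could not be checked against them.

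Raising the floor moved the bounds of Fgg and Fgb more than rescaling the arrays did. The log2 difference of Fgg was 8.36 after median centring, 7.34 with the floor at 32 and 5.70 with the floor at 100. For Fgb these were 7.83, 6.81 and 5.16, and the differences of both stayed above the 4-fold threshold in each. Both genes were counted as higher under all 10 alternatives.

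**Figure D5:**
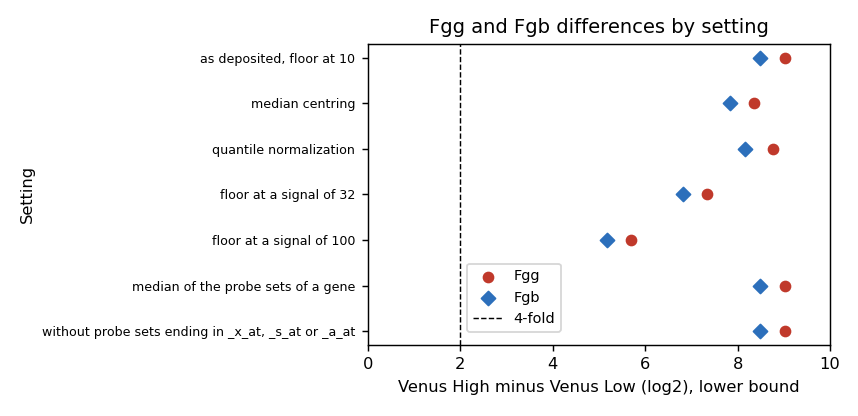
Log2 difference of luminal Venus High over Venus Low cells (horizontal axis), a lower bound, for Fgg (red circles) and Fgb (blue diamonds) under the values as deposited and each alternative that can change it (vertical axis). The dashed line marks 4-fold. The lowest bounds are with the floor at 100, 5.70 for Fgg and 5.16 for Fgb.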

How the data were processed

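Labelled cRNA from 250 ng of total RNA (RNA integrity number above 9.4 per the labels) was hybridized on 1 array per population. Values were deposited as log2 signals. After the log2 transform the authors normalized and centred each array in BRB Array software, and MAS5 is named in the submitters' processing notes. The factor they used was not given in the sources used here. Both arrays have the log2 of 10 as their lowest value. Scale and centring between the arrays stay unknown. Columns of other samples numbered 0.

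Gene names came from the platform annotation, with symbols updated by gene identifier (GRCm38.p6). Of the probe sets 22223 have 1 symbol, 602 several and 6513 none, and a member was in 0 of those with several. Where a gene had several probe sets, the one with the highest mean was used. The members and lists were chosen with earlier results of these data known. Named were all members, listed genes counted as at least 4-fold higher, otherwise up to 3 with the largest differences, the 5 genes nearest to Fgg and to Fgb, and the genes beside the cluster. Other listed genes were named after their values were seen. Provisional gene names were left out among the neighbours. Promoter windows are from RefSeq (GRCm38.p6), and Fgl1 had none. A motif and some listed genes are not reported here. Alternative settings were centring on the median, quantile normalization, floors of 32 and 100, the median over a gene's probe sets, a signal minimum of 50 or 200, a 2-fold or 8-fold threshold, and dropping names that end in _x_at, _s_at or _a_at. Python 3.11.15, numpy 2.4.6, pandas 2.3.3 and matplotlib 3.10.9 were used. The 4-fold count and median centring were checked on simulated data, and the other steps were not. The number of arrays limits the precision.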

Additional observations from a re-analysis of the deposited data

How the results depend on the processing

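Fga, Fgl1 and Fgl2 stayed at the floor on both arrays under all alternatives, none of which could raise them above it. The difference of Fgg was 8.76 after quantile normalization. It moved by less than 0.31, the SD of differences between probe sets of a gene, which was taken from other genes. Median centring gave 8.36 for Fgg and 7.83 for Fgb, quantile normalization 8.16 for Fgb, a floor at 32 gave 7.34 and 6.81, and a floor at 100 gave 5.70 and 5.16. The number of genes at least 4-fold higher was 170 with the floor at 100, 196 under quantile normalization and 186 under median centring, and it was 831 at 2-fold and 183 at 8-fold. Coagulation genes counted as higher numbered 0 under median centring, with the floor at 100, with a signal minimum of 200 and at 8-fold, where Vwf was lost, and 2 with a minimum of 50, where Proc was added. Transglutaminase genes numbered 0 at 8-fold and when names ending in _x_at, _s_at or _a_at were dropped, which leaves out all those of Tgm2. Regulators numbered 1 at 8-fold, where Lifr remained and Socs3 was lost. Receptor genes numbered 0 under median centring, quantile normalization, both raised floors, the median of probe sets, without the named probe set types and with a minimum of 200, where Fcgr2b was lost, and 2 with a minimum of 50. Acute phase genes and assembly genes each numbered 1 at 2-fold. No paired analysis was possible because there is 1 array per population, and for the same reason no replicate could be left out. Signals near the floor limit what can be said of low genes.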
